A study of Mus musculus with 12 samples.

Results

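The 4 Hox clusters of the mouse genome were examined here at the level of single CpG sites, gene windows and whole clusters. They were chosen by position (GRCm38, which is mm10): Hoxa at chr6:52150001-52265000, Hoxb at chr11:96190001-96370000, Hoxc at chr15:102920001-103040000 and Hoxd at chr2:74665001-74770000. These intervals hold 12459 of the 21867550 CpG sites in the table, 3317 in Hoxa, 3743 in Hoxb, 2541 in Hoxc and 2858 in Hoxd, and 38 protein-coding Hox genes. The rule uses positions only.

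Hox genes encode homeodomain transcription factors that give cells of the embryo their position along the body axis. Within a cluster they lie in the order in which they act from head to tail, so that low paralog numbers mark anterior genes and high numbers posterior genes. The clusters are rich in CpG islands, and in ES cells they are a textbook target of Polycomb complexes, which place H3K27me3, and are kept silent with little DNA methylation. DNMT3A and DNMT3B are the enzymes that set CpG methylation on unmethylated DNA, while DNMT1 copies it after replication.

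CpG methylation was measured by enhanced reduced representation bisulfite sequencing (eRRBS), which reads cytosines in fragments cut by 3 restriction enzymes. All 12 lines were mouse ES cells that lack Dnmt1, Dnmt3a and Dnmt3b (TKO) and stably expressed a human enzyme: DNMT3A, DNMT3B, or DNMT3B carrying the N656I, K777A or N779A substitution. There were 2 lines for each of 6 groups, because WT DNMT3B was profiled in 2 sets, named a and b in the labels. N656I and DNMT3A were compared with WT a, and K777A and N779A with WT b, whose libraries carry the same name prefix. Per the labels, cells that took up the vector were selected with 50 µg/ml zeocin for 10 days and kept in 25 µg/ml. The endogenous enzymes are absent in all of these lines, and no line without an added enzyme was analysed here, so that the level read without any enzyme was not measured. The study made both pooled and clonal lines, and which kind each of these lines was is not given in the sources used here. Per the study, the lines of a group were derived independently of each other, and the WT b lines are not the WT a lines.

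Each line had 16224222 to 36029921 reads on CpG sites, of which 10657 to 30591 lay in the Hox clusters. WT a replicate 2 stood apart: its reads in the clusters fell on 901 sites at 11.8 reads per covered site, where the other 11 lines covered 3157 to 7747 sites at 3.13 to 5.73 reads. The comparisons of clusters with flanks and with each other, and the DNMT3A gene test, are therefore also given without it. Summed over the 4 clusters, the 95% counting interval of a line (Wilson) was 0.166 to 0.441 percentage points to either side. Reads carry no molecular identifiers, and sites on the same read are not independent, so such intervals and limits cover counting error only, and the spread between lines is the error used below.

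To show what the reads fall on, stretches of 300 bases were taken on a fixed grid in Hoxa, Hoxb and Hoxd, and the one with the highest mean over the 6 groups was picked in each. In Hoxb, 3 stretches had 20 reads in every line. In Hoxa and Hoxd, where fewer than 2 did, 47 and 42 stretches had 20 reads in every group and were used instead. The 3 sequences below are the forward strand of GRCm38 with each CpG in capitals. They differ in how many CpG sites they hold.
Hoxa highest, chr6:52210001-52210300, centre at -1.43 kb from the 5′ end of Hoxa6: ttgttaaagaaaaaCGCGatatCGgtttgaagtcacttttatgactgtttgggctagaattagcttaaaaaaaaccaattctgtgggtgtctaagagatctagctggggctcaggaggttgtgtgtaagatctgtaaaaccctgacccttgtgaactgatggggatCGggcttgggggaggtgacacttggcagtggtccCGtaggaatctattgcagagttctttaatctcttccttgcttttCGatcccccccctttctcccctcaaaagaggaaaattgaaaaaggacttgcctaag
Hoxd highest, chr2:74738801-74739100, centre at -0.67 kb from the 5′ end of Hoxd3: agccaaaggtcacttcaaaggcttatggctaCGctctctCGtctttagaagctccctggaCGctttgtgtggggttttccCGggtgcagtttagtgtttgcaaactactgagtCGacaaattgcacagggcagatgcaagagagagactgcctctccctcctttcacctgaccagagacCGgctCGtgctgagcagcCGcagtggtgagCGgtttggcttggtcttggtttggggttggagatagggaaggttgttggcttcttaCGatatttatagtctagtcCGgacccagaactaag
Hoxb highest, chr11:96314801-96315100, centre at -3.32 kb from the 5′ end of Hoxb4: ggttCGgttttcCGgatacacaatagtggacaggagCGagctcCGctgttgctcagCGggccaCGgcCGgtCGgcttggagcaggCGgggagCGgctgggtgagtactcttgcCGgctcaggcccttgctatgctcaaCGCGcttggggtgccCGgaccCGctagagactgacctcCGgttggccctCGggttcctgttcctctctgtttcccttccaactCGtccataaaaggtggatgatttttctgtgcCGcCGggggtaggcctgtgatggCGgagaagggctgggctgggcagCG

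The Hoxa stretch holds 6 CpG sites and was at 26.9% in DNMT3A, 26.1% in WT a, 25.0% in WT b, 25.9% in K777A, 14.8% in N656I and 8.11% in N779A (reads of both lines pooled). The Hoxd stretch, with 11 CpG sites, was at 41.1% in DNMT3A, 24.4% in WT a, 10.0% in WT b, 7.92% in N779A, 2.38% in N656I and 0% in K777A. The Hoxb stretch, with 22 sites, was at 28.01% in DNMT3A, 14.3% in WT a, 11.1% in WT b, 9.68% in N779A, 2.67% in K777A and 1.38% in N656I. These stretches were chosen by their levels, so the values are a description. They rest on 23 to 104 reads per group in Hoxa, 40 to 160 in Hoxd and 62 to 282 in Hoxb. With so few reads, similar values in 2 groups do not show that the groups were equal there.

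Over whole clusters, DNMT3A lines carried the highest methylation and K777A lines the lowest. Summed over the 4 clusters, DNMT3A lines were methylated at 14.5% and 15.3% of reads, and the level was 4.97% and 4.16% in WT a, 5.003% and 4.92% in WT b, 4.20% and 3.17% in N656I, 3.64% and 4.42% in N779A, and 1.82% and 2.19% in K777A. Both DNMT3A lines lay above, and both K777A lines below, every other line. The mean difference between DNMT3A and WT a was 10.4 percentage points (14.9% ± 0.582 against 4.56% ± 0.575, SD, n = 2), a ratio of 3.27. K777A was 2.95 points lower than WT b (2.01% ± 0.259 against 4.96% ± 0.0605, SD, n = 2), a ratio of 0.405. N779A was 0.931 points lower than WT b without overlap, and N656I was 0.879 points lower than WT a with overlapping lines. The WT sets differed by 0.397 points and overlapped. With 2 lines against 2, the smallest p of the two-sided exact permutation test is 0.33. In that test none of these differences can pass a threshold of 0.05, whatever their size. Over all reads of the whole table the ends were the same, from 6.18% in a K777A line to 35.4% in a DNMT3A line, but the order between them was not: the WT a lines were at 16.01% and 14.9% there, the N656I lines at 13.8% and 10.5%, the WT b lines at 13.7% and 12.4% and the N779A lines at 11.03% and 11.8%.

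In the DNMT3A lines Hoxb was the highest cluster. It was at 18.7% and 21.2%, while Hoxa was at 10.8% and 11.5%, Hoxc at 13.6% and 11.7% and Hoxd at 11.996% and 12.7%. In K777A lines all of the clusters lay between 1.42% and 2.57%. Over 12 lines no difference between a pair of clusters passed the threshold of 0.05 (exact sign-flip test over lines, Benjamini-Hochberg adjusted over 6 pairs, p = 0.202 for Hoxb against Hoxc, the lowest). Without WT a replicate 2, Hoxb was higher than Hoxa in 11 of 11 lines (mean difference -2.69 points for Hoxa minus Hoxb, exact sign-flip test, adjusted p = 0.00293), higher than Hoxd in 11 lines (2.52 points, exact, adjusted p = 0.00293) and higher than Hoxc in 10 lines (2.05 points, exact, adjusted p = 0.00586). In that line Hoxb was at 1.43%, its lowest cluster, on 351 covered sites. The pair tests here and in the next paragraph compared levels that were not weighted for CpG density. Hoxb also had the smallest share of sites with at least 12 CpG sites within 100 bp on either side. This share was 30.7% in Hoxb, 37.3% in Hoxc, 44.8% in Hoxa and 45.3% in Hoxd.

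Hoxb is the only cluster with a long stretch free of protein-coding Hox genes inside it, 73.0 kb between Hoxb13 and Hoxb9 (chr11:96197448-96270456) with 1059 CpG sites. It was at 33.2% ± 2.43 in DNMT3A (SD, n = 2), while the rest of Hoxb was at 15.2% ± 1.68. In WT b it was at 7.57% ± 1.16 against 5.22% ± 0.928, and in K777A at 3.46% ± 0.443 against 1.89% ± 0.212. The stretch was higher than the rest of Hoxb in 12 of 12 lines, by a median of 2.74 points. It is also poorer in CpG, with a median of 5 CpG sites within 100 bp on either side against 9 in the rest. At sites with 3 to 8 CpG in that window it was higher in 9 of 12 lines. With this stretch left out, the pair differences of Hoxb shrank to -0.56, 0.29 and 0.32 points, with adjusted p = 0.882 (exact sign-flip test over 12 lines). With both the stretch and WT a replicate 2 left out, Hoxb was still higher than Hoxa in 9 of 11 lines (Hoxa minus Hoxb -1.16 points, exact sign-flip test, adjusted p = 0.041) and than Hoxd in 8 lines (0.988 points, exact, adjusted p = 0.041), and the difference from Hoxc missed the threshold (0.518 points, exact, adjusted p = 0.329).

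**Figure D1:**
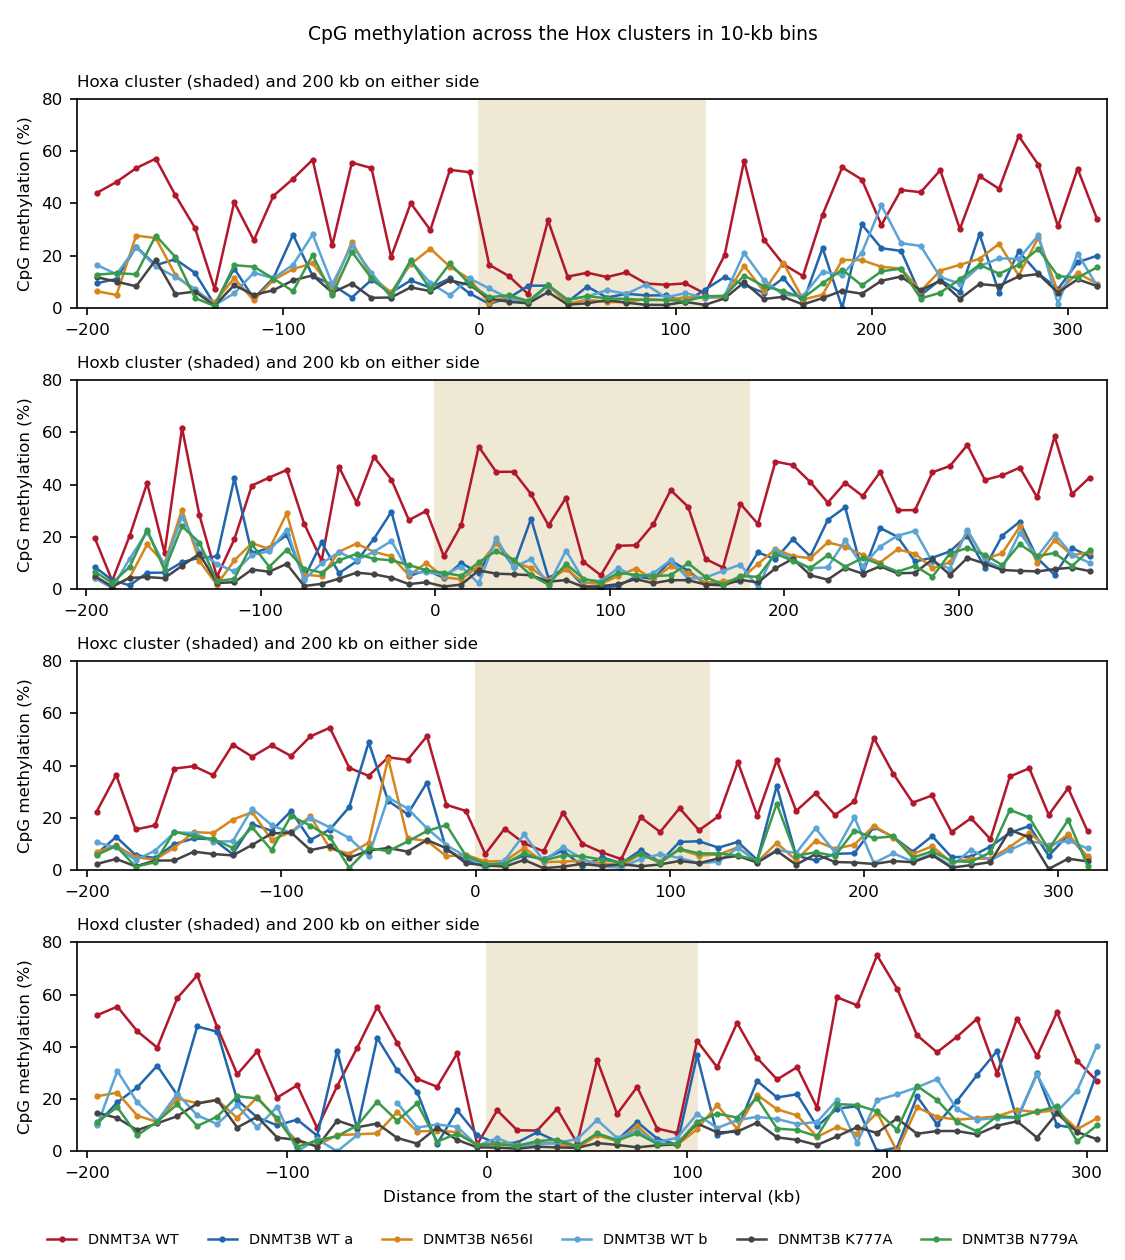
CpG methylation (%, vertical axis) in 10-kb bins against the distance from the start of each cluster interval (kb, horizontal axis), with the reads of both lines of a group pooled; each coloured line is a group, the shaded band is the cluster, and bins under 20 reads are left out. DNMT3A (red) is the highest line in most bins, it drops inside Hoxa, Hoxc and Hoxd, and it stays up in the first part of Hoxb, the 73.0 kb between Hoxb13 and Hoxb9.

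The clusters were lower in methylation than the DNA around them. The flanks, 200 kb on either side, were at 30.9% and 33.0% in DNMT3A lines and at 4.91% and 6.43% in K777A lines, without any weighting. Part of that gap goes with base composition, because the clusters are dense in CpG: 28.8 sites per kb in Hoxa against 10.7 in its flanks, 20.8 against 12.9 in Hoxb, 21.2 against 10.4 in Hoxc and 27.2 against 9.01 in Hoxd. Flank sites were therefore weighted, within each line, to the density of the cluster's reads, where density is the number of CpG sites within 100 bp on either side, the site itself included.

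At equal density the clusters were still lower. For the 4 clusters together, the difference from the flanks was negative in 12 of 12 lines, with a mean of -2.32 points ± 1.57 (SD, n = 12) and a median ratio of 0.736 (exact sign-flip test over lines, two-sided, adjusted over 5 results, p = 0.000814, the smallest that 12 lines allow being 0.000488 before adjustment). Hoxa was lower in 11 lines (-2.63 points ± 2.70, exact, adjusted p = 0.00146), Hoxb in 12 (-1.87 ± 1.68, exact, adjusted p = 0.000814), Hoxc in 12 (-1.64 ± 1.92, exact, adjusted p = 0.000814) and Hoxd in 11 (-2.89 ± 2.77, exact, adjusted p = 0.00122). Without WT a replicate 2 the 4 clusters together were lower in 11 of 11 lines, by 2.02 points on average (mean -2.02, exact sign-flip test, adjusted p = 0.00122), and Hoxa became lower in every one of them. The Hoxd call did not hold with flanks of 100 kb (-1.07 points, exact, adjusted p = 0.512), and the calls of Hoxa, Hoxc and Hoxd did not hold with sites of at least 10 reads (-1.62, -0.94 and -3.08 points, exact, adjusted p = 0.175, 0.175 and 0.0667).

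For the 4 clusters together the ratio of cluster to flank level was under 1 in every line, while it was above 1 for Hoxa in WT a replicate 2 (1.13) and for Hoxd in N779A replicate 2 (1.02). Over the 4 clusters it was 0.777 ± 0.0171 in DNMT3A, 0.759 ± 0.0313 in WT b, 0.717 ± 0.179 in N779A, 0.693 ± 0.0602 in N656I and 0.66 ± 0.0663 in K777A (SD, n = 2). In WT a it was 0.75 in replicate 1 and 0.429 in replicate 2. Between WT a and DNMT3A the clusters differed 3.27 times and the flanks at equal density 2.36 times, but with WT a replicate 1 as the only reference line the ratios were 3.004 and 2.90, so the gap between them rests on replicate 2. K777A was at 0.405 of WT b in the clusters and at 0.47 in the flanks. By cluster, K777A was at 0.388 of WT b in Hoxa, 0.399 in Hoxb, 0.422 in Hoxc and 0.423 in Hoxd. Within Hoxa, the DNMT3A lines were 6.32 and 9.38 points below their flanks (differences of -6.32 and -9.38), the widest gap of the 4 clusters in those lines.

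**Figure D2:**
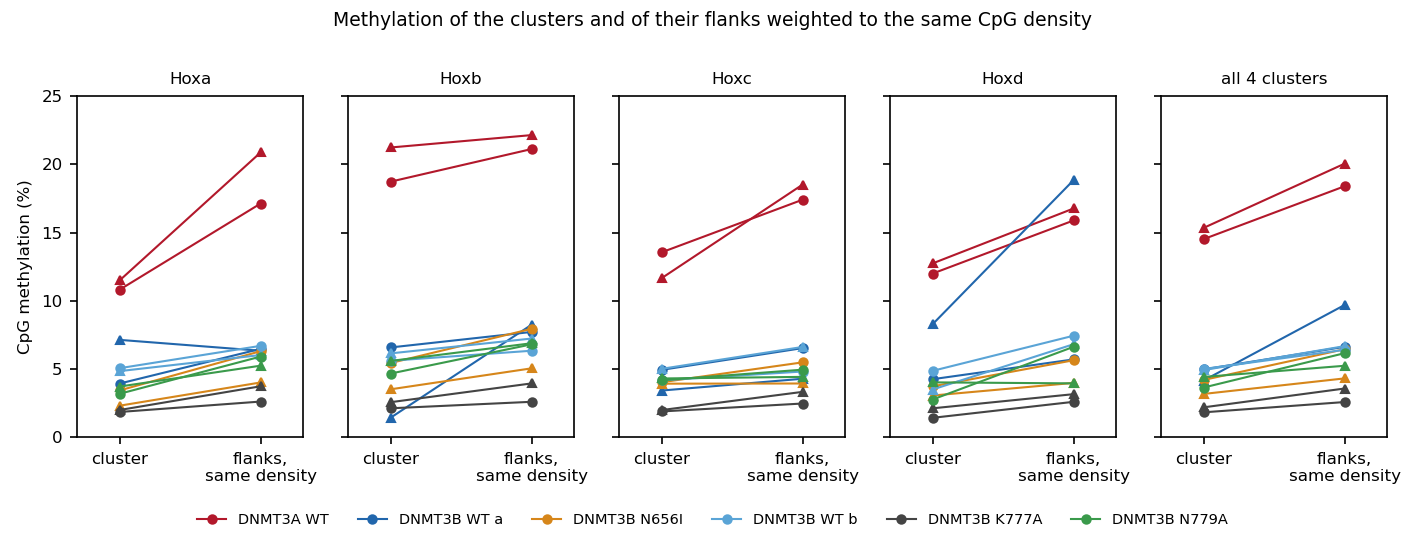
CpG methylation (%) of each cluster and of its flanks weighted to the same CpG density, joined by a line for each of the 12 ES cell lines; colours are groups, circles replicate 1 and triangles replicate 2. For all 4 clusters together every line rises from the cluster to the flanks, and WT a replicate 2 (dark blue triangles) falls in Hoxa and rises in the other clusters.

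The gap was found at sites of sparse and middling density and not at the densest sites. With 3 to 4 CpG sites in the 200 bp, the clusters were lower than the flanks in 12 of 12 lines, by a median of 5.57 points (median difference -5.57). With 5 to 6 sites they were lower in 12 lines (-6.01), and with 7 to 8 in 11 lines (-3.13). With 12 to 15 sites they were lower in 6 of 12 lines (-0.0184), and with 16 and over in 6 lines (0.0542). At the densest sites the clusters stayed between 0.769% and 2.35% in all 12 lines, DNMT3A included, and 3075 of the 12459 Hox sites belong there. DNMT3A thus ran from 40.0% at lone CpG sites of the clusters down to 2.09% at the densest, and WT b from 9.32% to 1.44%.

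Methylation also changed with distance from the clusters. Over the 12 lines the median was 4.31% inside, 7.82% within 25 kb of an edge, 10.9% from 25 to 50 kb, 12.4% from 50 to 100 kb and 11.9% from 100 to 200 kb. At sites with 3 to 8 CpG in 200 bp the same medians were 7.22%, 9.05%, 13.2%, 12.7% and 14.5%, so the nearest 25 kb lay between the clusters and the outer flanks. These classes are from the same lines and are a description.

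**Figure D3:**
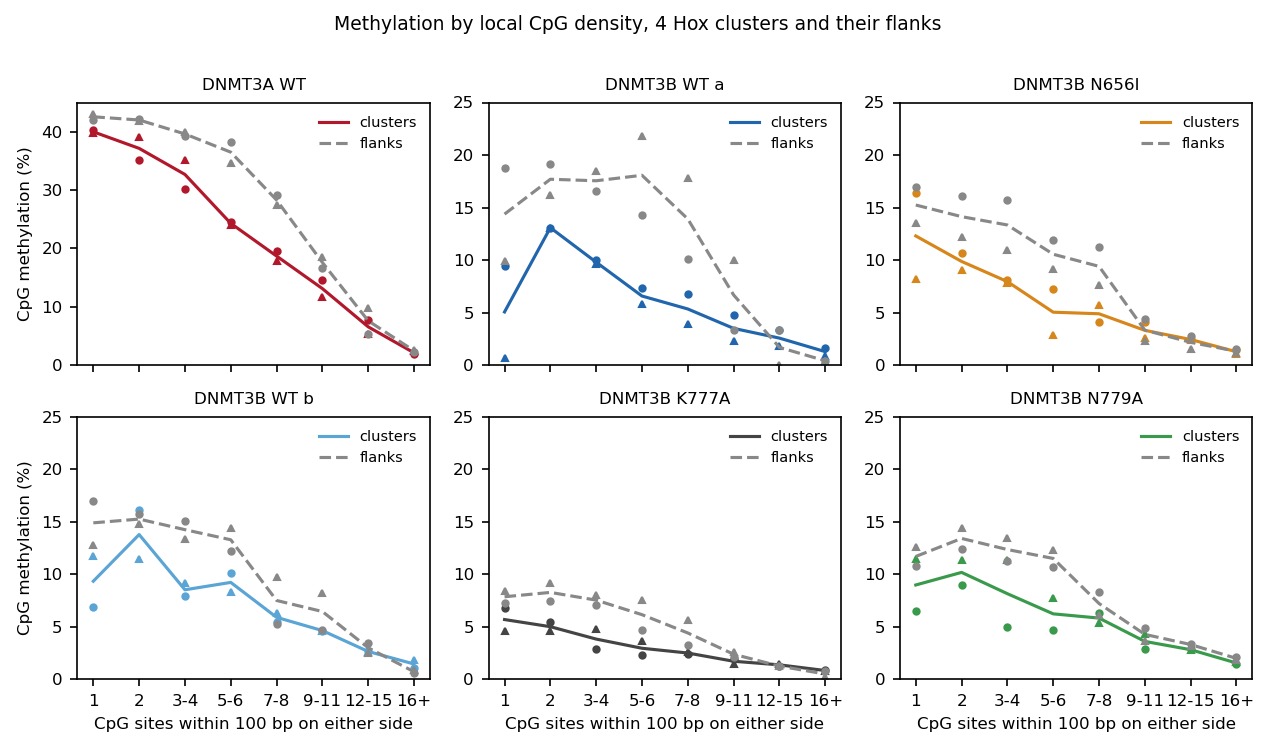
CpG methylation (%) against the number of CpG sites within 100 bp on either side, for the clusters (solid, coloured) and their flanks (dashed, grey); lines are means of the 2 lines of a group, circles replicate 1 and triangles replicate 2, and the DNMT3A panel has a taller scale. The solid line is below the dashed line from 1 to 8 sites in each panel, and both end under 2.45% at 16 and over.

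Inside the clusters, promoters and coding exons carried less methylation than the DNA between genes in each of the 12 lines. Promoters, here 1000 bp on either side of the 5′ end, were at 5.14% ± 0.343 in DNMT3A, 2.95% ± 0.593 in WT b and 1.14% ± 0.0335 in K777A (SD, n = 2). Coding exons were at 5.34% ± 0.519, 2.60% ± 1.18 and 1.41% ± 0.406 in the same groups. The DNA between genes was at 23.3% ± 0.733 in DNMT3A, 6.64% ± 0.431 in WT b and 2.81% ± 0.497 in K777A, and it was higher than promoters in 12 of 12 lines (median difference 3.599 points). Promoters have a median density of 15 CpG sites and the DNA between genes of 7, and at sites with 3 to 8 CpG the DNA between genes was higher in 10 lines (1.98 points). The rest of the transcripts, that is introns and untranslated parts, was at 13.8% ± 0.310 in DNMT3A, 5.62% ± 1.1997 in WT b and 2.23% ± 0.339 in K777A, and it was higher than promoters in 12 of 12 lines (median difference 2.26 points), but at sites with 3 to 8 CpG in only 7 lines (1.15 points). It exceeded the DNA between genes in WT a replicate 2 (8.21% against 5.17%) and, by little, in WT b replicate 1 and K777A replicate 1. The long Hoxa3 transcript was not counted as a gene body in this split, because it runs over its neighbours.

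Among the paralog classes, anterior promoters had the highest level in each of the 6 groups. Promoters of the 11 anterior genes (paralogs 1 to 4) were at 7.49% in DNMT3A, 5.03% in WT a, 4.49% in WT b and 1.41% in K777A (group means), those of the 11 central genes (5 to 8) at 4.88%, 1.38%, 2.71% and 1.31%, and those of the 16 posterior genes (9 to 13) at 4.19%, 2.55%, 2.26% and 0.924%. Over the coding spans the order was not the same: anterior genes were at 3.33% in DNMT3A and posterior genes at 5.27%. No test was run on these classes, which share reads with the clusters above.

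For single genes, a window from 1000 bp upstream of the 5′ end to the last coding base was used. Of 38 windows, 26 had 20 reads in every line. WT a replicate 2 had 20 reads in 27 of them, and each other line in 37 or 38. Hox windows were lower than the windows of all genes, in a comparison not matched for CpG density or window length. The share of Hox windows under 5% was 42.1% and 52.6% in the DNMT3A lines, 81.1% and 76.3% in WT b, and 97.4% and 100% in K777A. Over all protein-coding windows the share was 7.9% and 8.0% in DNMT3A, 25.5% and 23.2% in WT b, and 49.0% and 41.6% in K777A. The median Hox window was at 5.27% and 4.52% in DNMT3A lines, while the median of all windows was at 28.5% and 30.04%. Across the 26 windows, the mean level was lower where the median CpG density was higher (Spearman's rho = -0.55, a description over genes that share lines and libraries).

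Of 443 pairs of a window and a line with 20 reads, 51 were at 0%. The limit that a count of 0 allows is given here and below as 3 counts of the window's reads, and it ran from 0.552% to 13.6%. The 95% interval of a window, by the Wilson method and so not the same bound, was 1.87 points to either side in the median and 15.0 points at most.

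The highest windows in their clusters were Hoxd12 and Hoxd3, Hoxa6 and Hoxa9, and Hoxb1 and Hoxb5. Hoxd12 (chr2:74674013-74676049, plus strand), a posterior gene that acts in the limb, was at 25.0% and 36.3% in the DNMT3A lines, 6.33% and 4.38% in WT a, 9.19% and 6.25% in N656I, 0% and 3.85% in WT b, 0.69% and 1.80% in K777A, and 2.49% and 6.79% in N779A. Only the DNMT3A lines stood clear of the rest, and the 0% rests on 42 reads, which allow up to 7.14%. Hoxd3 (chr2:74738619-74747076, plus strand), an anterior gene that patterns the upper cervical vertebrae, was at 16.5% and 14.6% in DNMT3A, 5.64% and 15.0% in WT a, 6.59% and 2.65% in N656I, 4.60% and 4.17% in WT b, 1.75% and 1.66% in K777A, and 1.90% and 5.78% in N779A. The stretch upstream of Hoxd3 printed above lies in this window, and its promoter alone was at 30.5% and 18.1% in DNMT3A. Hoxa6 ran from 1.67% to 30.3% over the 12 lines, with 27.0% and 8.76% in DNMT3A and 30.3% and 4.08% in WT a, so in both of these groups 1 line was high and the other low. Hoxa9, known for its part in blood stem cells and leukaemia, was at 45.3% in WT a replicate 2, on 64 reads at 14 sites, and at 1.18% to 11.4% in the other lines. Its place rests on that line, since the mean of Hoxa9 over the groups was 7.81% with it and 4.29% without it, where Hoxa3 was at 5.16%. Hoxb1, which marks the fourth rhombomere of the hindbrain, ran from 0% to 15.8% and Hoxb5 from 0% to 9.05%.

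The lowest windows were Hoxc5, Hoxd8 and Hoxd11, with means of 1.01%, 1.23% and 1.29% over the 6 groups. Hoxc5 stayed between 0% and 3.65% in all 12 lines, Hoxd8 between 0% and 4.47%, and Hoxd11 between 0% and 3.69%, and in each of these windows the DNMT3A lines overlapped with the others. Hoxa7 and Hoxa10 were the lowest in Hoxa (1.96% and 2.24%) and Hoxb8 and Hoxb2 in Hoxb (2.01% and 2.07%). In Hoxc only 4 windows had 20 reads in every line, and Hoxc5, Hoxc11, Hoxc9 and Hoxc13 lay between 1.01% and 2.08%.

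**Figure D4:**
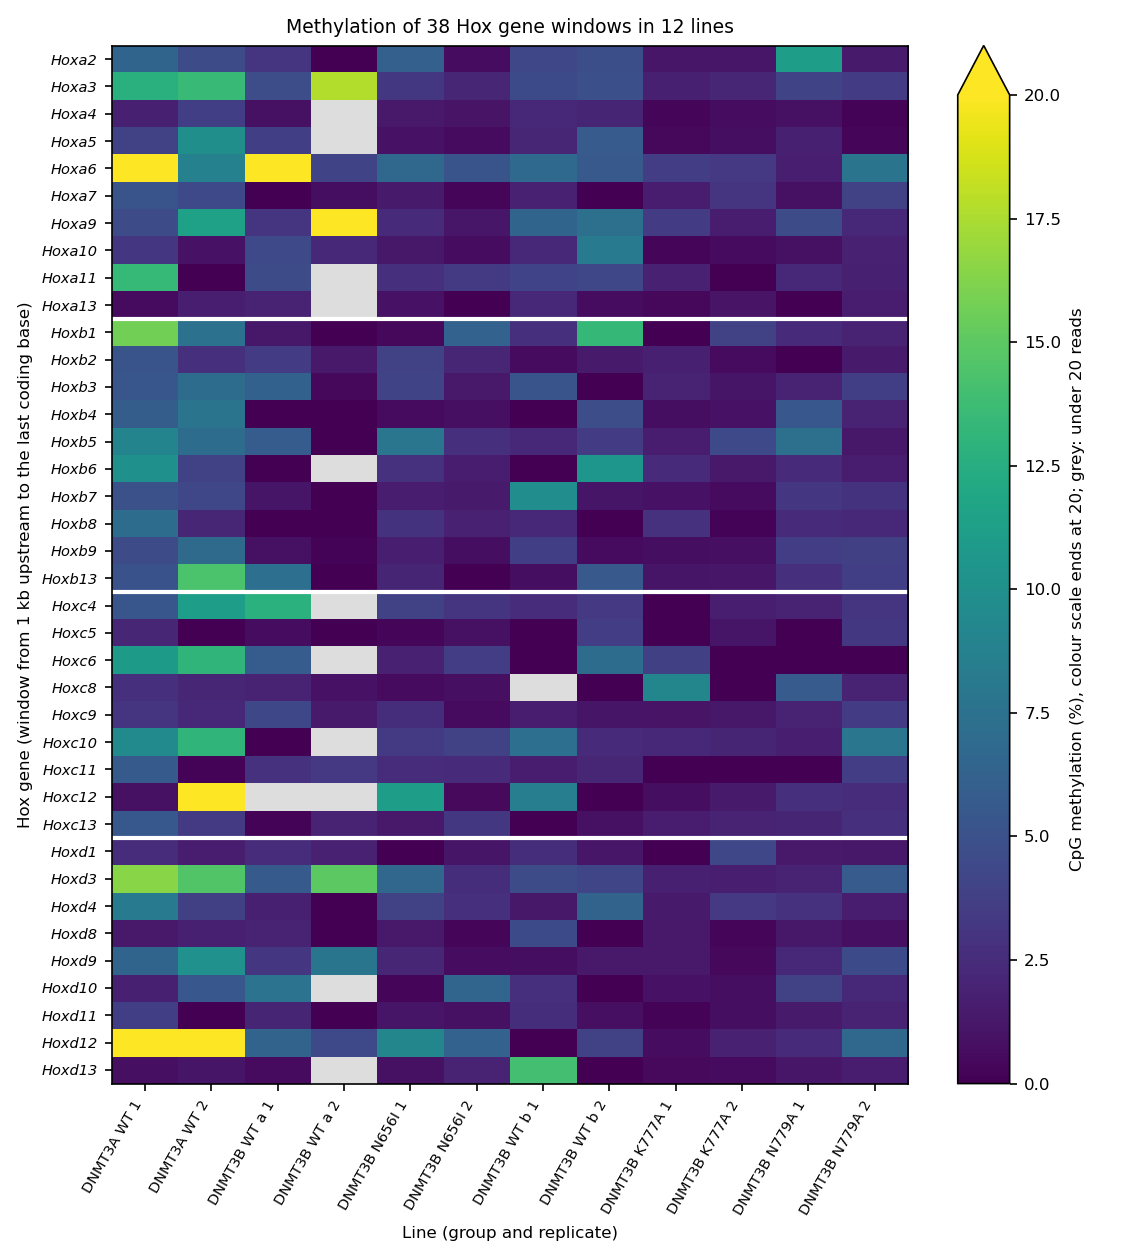
Methylation (%) of the 38 Hox gene windows (rows, by cluster and paralog number, white lines between clusters) in the 12 lines (columns), with the colour scale ending at 20% and windows under 20 reads in grey. Most cells are dark, below 5%, and Hoxd12 is yellow, past the end of the scale, in both DNMT3A lines, and 11 of the grey cells are in the column of WT a replicate 2.

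The windows were then tested between groups with all protein-coding windows in the fit (edgeR's quasi-likelihood test on methylated and unmethylated reads, Benjamini-Hochberg adjusted). A log2 change here is that of the odds of methylation. DNMT3A against WT a gave no called Hox window among 27 tested, where 8.41% of all 16394 windows were called, and 5 Hox windows had an unadjusted p under 0.05, beside 5756 of all windows. Of the 27, 21 were higher and 6 lower in DNMT3A, with a median log2 change of 1.202 against 1.69 over all windows, and in limma the Hox median turned from 0.84 to -0.89 when each line was centred on its own windows. Without WT a replicate 2, 9 of 37 Hox windows were called, all higher (Hoxb9, Hoxb7, Hoxb4, Hoxc13, Hoxc10, Hoxd12, Hoxd3, Hoxa3 and Hoxa7), where 44% of all windows were called. Without WT a replicate 1, in turn, 10 of 27 were called, 9 of them higher, where 64% of all windows were called. With the WT b lines as reference, 5 of 37 were called, all higher (Hoxc13, Hoxd12, Hoxd9, Hoxd3 and Hoxa3), where 62.8% of all windows were called, and with all 4 WT lines 1 of 26 (Hoxd12), where 36.8% were. Limma on the log odds called none of 27 Hox windows and none of all windows.

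On the log2 scale of the odds, the largest positive change against WT a was that of Hoxb4, which supports the growth of blood stem cells: 5.91% and 7.72% in DNMT3A, and 0% in both WT a lines, on 171 and 121 reads (adjusted p = 0.0905, edgeR). The counts of 0 allow up to 1.75% and 2.48%, and the size of a log2 change over a group at 0 is set by the fit. In percent methylation, Hoxd12 (group means 30.7% against 5.35%) and Hoxb1 (11.6% against 0.649%) were further apart. The largest negative change was that of Hoxa9, at 4.66% and 11.4% in DNMT3A against 3.08% and 45.3% in WT a (adjusted p = 0.643, edgeR), and its direction rests on WT a replicate 2.

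K777A against WT b gave 3 called Hox windows of 37, all lower, where 23.3% of all 17733 windows were called. Hoxa10 (chr6:52232509-52235939, minus strand), needed in the uterus and the posterior skeleton, was at 0.268% and 0.617% in K777A and at 2.20% and 8.14% in WT b (log2 change -3.49, SE 0.993, adjusted p = 0.022, edgeR). Hoxa5 (chr6:52202584-52205587, minus strand), which acts in the lung and the cervical skeleton, was at 0.434% and 0.747% against 2.13% and 5.71% (log2 change -2.59, SE 0.776, adjusted p = 0.0261, edgeR). Hoxa3 (chr6:52169943-52214115, minus strand), needed for the thymus and parathyroid, was at 1.76% and 2.14% against 4.47% and 4.86% (log2 change -1.30, SE 0.307, adjusted p = 0.0109, edgeR). The groups did not overlap in any of these windows. The K777A levels rest on 1 and 2 methylated reads in Hoxa10 and on 3 and 5 in Hoxa5. Levels this low can hold a share of unconverted cytosines, which was not subtracted. The Hoxa3 window spans its long transcript and takes in the windows of Hoxa4, Hoxa5 and Hoxa6, so its call is not independent of theirs. Over the 37 windows 32 were lower in K777A, with a median log2 change of -1.30 against -0.99 over all windows, and in limma with each line centred the Hox median was 0.00344. Limma called none of 37 and none of all windows, and the WT a lines as reference gave no call either, in 27 Hox windows or in all windows, but Hoxa5, without a read in WT a replicate 2, could not be tested there. With all 4 WT lines as reference, again without Hoxa5, none of 26 Hox windows was called, where 3.56% of all windows were. With sites of at least 5 reads none of 28 was, where 4.37% of all windows were, and over promoters alone none of 35 was, nor any promoter of all genes. Without K777A replicate 1 no Hox window was called, where 2.13% of all windows were, and without K777A replicate 2 only Hoxa3 was, where 8.69% of all windows were. Without WT b replicate 2, 9 of 37 Hox windows were called, 8 of them lower, where 36.7% of all windows were called, and Hoxa3 was the only one of these 9 among the 3 above.

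The other comparisons called no Hox window. N656I against WT a called 0 of 27 and 0% of 16398 windows (1 Hox window and 329 of all windows with an unadjusted p under 0.05, and none called by limma), with a median log2 change of -0.02. On the log2 scale the largest positive change was that of Hoxb8, at 2.96% and 1.82% against 0% in both WT a lines, where the reads allow up to 4.69% and 5.88%, above both N656I values, and the largest negative change that of Hoxa9, at 2.46% and 1.18% against 3.08% and 45.3%. Without WT a replicate 1, 3 of 27 Hox windows were called in N656I (Hoxb5, Hoxa3 and Hoxa9), where 19.9% of all windows were called, and 2 of 26 between the WT sets (Hoxa3 and Hoxa9), where 19.1% of all windows were. N779A against WT b called 0 of 37 and 0.00569% of 17570 windows (4 Hox windows and 1165 of all windows with an unadjusted p under 0.05, and none called by limma), with a median log2 change of -0.19. On the log2 scale its largest positive change was that of Hoxc13, a gene of hair and nails, at 2.08% and 2.78% against 0% and 0.882% (adjusted p = 0.679, edgeR), and its largest negative change that of Hoxc6, at 0% in both N779A lines, where the reads allow up to 3.41% and 2.91%, against 0% and 7.06%. In percent methylation Hoxd12 (group means 4.64% against 1.92%) was further up in N779A and Hoxb1 (2.25% against 8.03%) further down. WT a against WT b called 0 of 26 and 0% of 16163 windows (no Hox window and 326 of all windows with an unadjusted p under 0.05, and none called by limma), with the largest positive log2 change at Hoxd9, 3.19% and 7.75% in WT a against 0.763% and 1.38%, and the largest negative one at Hoxb4, 0% in both WT a lines against 0% and 4.76%. In percent methylation Hoxa9 (group means 24.2% in WT a against 6.90%, with WT a replicate 2 at 45.3%) and Hoxb1 (0.649% against 8.03%) were further apart. The DNMT3A and N656I comparisons share the WT a lines, and the K777A and N779A comparisons share the WT b lines.

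Genes around the Hox network were counted in the same fits. In DNMT3A against WT a, where 8.41% of all windows were called, 0 of 19 ParaHox and Hox-linked homeobox genes were called, 2 of 29 other developmental regulators (Pax2 and Pax7) and 2 of 10 Polycomb subunit genes (Jarid2 and Kdm2b), each higher. In K777A against WT b, where 23.3% of all windows were called, 3 of 20 ParaHox and linked genes were called (Cdx1, Mnx1 and Dlx5), 10 of 29 developmental regulators (among them Pax3, Isl1 and Gata4) and 3 of 11 Polycomb genes (Ezh1, Cbx2 and Kdm2b), each lower. Median log2 changes of these lists in K777A lay between -0.77 and -1.05, beside -0.99 over all windows and -1.30 over the Hox windows. N656I, N779A and the WT sets gave no call in any of these lists. The mean window level in WT b was 4.54% for ParaHox and linked genes, 5.45% for developmental regulators and 11.01% for Polycomb genes, and 3.26% for the 37 Hox windows.

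Among lines with 20 reads, the highest level was 65.7% at a noncoding gene of the clusters and 45.3% at a coding window. Hotair, a long noncoding RNA of Hoxc, had 42 CpG sites and a median of 18.9% over the 11 lines with 20 reads (0% to 35.9%), and Hottip, at the posterior end of Hoxa, had 87 sites and a median of 15.0% (0.917% to 36.7%). From 500 bp before to 500 bp after Mir196a-1, between Hoxb13 and Hoxb9, the median of 8 lines was 35.3% (0% to 65.7%). Around Mir196b in Hoxa it was 1.43% over 12 lines, and around Mir615 in Hoxc 0% over 11 lines, at 61 and 65 CpG sites. Mir10a, Mir10b and Mir196a-2 had 20 reads in 6, 7 and 2 lines.

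The base after the CpG, on the forward strand, was examined at cluster sites with fewer than 9 CpG in 200 bp. In K777A, CGG sites were at 1.90% and 1.96%, where WT b was at 9.65% and 9.83%, a ratio of 0.199, while CGT sites were at 5.14% and 5.76% against 8.87% and 8.88%, a ratio of 0.614. The flanks had ratios of 0.248 and 0.772 at the same contexts. In N656I, CGC sites were at 2.53% and 2.25%, where WT a was at 5.03% and 6.60%, a ratio of 0.411, while CGA sites were at 10.7% and 7.40% against 9.14% and 6.56%. The flank ratio at CGC in N656I was 0.699. At CGT the ratio in N656I was lower in the flanks (0.572) than in the clusters (0.769). In DNMT3A, CGC sites were 5.06 times as methylated as in WT a, CGA sites 3.22 times and CGG sites 2.44 times. At CGT sites the WT a lines were far apart, at 8.03% and 3.599%, so that the DNMT3A mean of 29.4% was 3.66 times the one and 8.18 times the other. In the flanks the ratios were 4.55 at CGC, 2.37 at CGT, 1.95 at CGA and 2.34 at CGG. The groups did not overlap at any of the 4 contexts in K777A and DNMT3A, nor at CGC and CGG in N656I, and the exact permutation p was 0.333 in each, the smallest possible. Both strands were merged in the table, so a site also has the complement of the base before it as the following base of its other strand.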

How the data were processed

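eRRBS was analysed in 12 TKO ES cell lines, 2 per group. Per the labels and the methods, the authors trimmed the read pairs with Cutadapt, aligned them with Bismark 0.18.1 and Bowtie 1.2 to mm10, dropped pairs in which a read end held at least 3 methylated cytosines outside CpG, and merged both strands. The deposited values are raw counts of methylated reads and of all reads at each CpG site, not normalized. The filter on non-CpG methylation removes unconverted reads and can remove truly methylated ones.

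The level of a region was methylated reads divided by all reads, over every covered site. Gene windows came from GENCODE M21 (the transcript with the longest coding sequence). Flanks were weighted over 8 classes of CpG density, each with at least 20 flank reads. Windows needed 20 reads in each of the 4 lines. Tests used Python 3.11.15, R 4.3.3, edgeR 4.0.16 (modelMatrixMeth) and limma 3.58.1, with a threshold of 0.05, and were tested on simulated data. In each cluster the 2 highest and 2 lowest windows with 20 reads in every line were named, and in each comparison up to 3 called windows in each direction or, without a call, the largest change in each. The clusters, genes and lists were chosen with earlier results of these data known, and flanks from 50 to 200 kb and Hoxb without its gene-free stretch (over 12 and 11 lines) were added after seeing the data. Per the study the 2 lines of a group were derived independently, so p-values between groups measure the spread between such lines. The sign-flip tests took the 12 or 11 lines of all 6 groups as replicates. Their p-values and SDs therefore also take in differences between the enzymes. Some items are not reported here.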

Additional observations from a re-analysis of the deposited data

How the results depend on the processing

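The mean cluster level stayed below that of the flanks under all alternatives run, and the calls held in all of them except 4. With sites of at least 10 reads the differences that missed the threshold were -1.62 points for Hoxa, -0.94 for Hoxc and -3.08 for Hoxd, and with flanks of 100 kb -1.07 for Hoxd. Leaving out a line in turn gave -2.95 to -2.02 for Hoxa, -1.99 to -1.42 for Hoxb, -1.79 to -1.17 for Hoxc, -3.16 to -2.19 for Hoxd and -2.46 to -2.02 for all 4. The cause of these changes was not tested.

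Between groups, DNMT3A minus WT a moved to 11.6 points (sites with 10 reads), 9.20 (sites weighted equally) and 9.78 (1 density), with 9.96 to 10.8 when a line was left out. N656I minus WT a moved to -2.08 (sites covered in all 4 lines) and -1.62 (equal weight), with -1.39 to -0.37 by left-out line. K777A minus WT b moved to -4.20 (10 reads), -2.18 (covered in all 4), -2.45 (CCGG sites left out), -2.56 (WT a lines) and -2.76 (all WT lines), with -3.14 to -2.77. N779A minus WT b moved to -2.33 (10 reads), -1.35 (5 reads), -0.49 (equal weight) and -0.53 (WT a lines), with -1.32 to -0.54, and in Hoxb it turned to 1.124 (WT a lines) and 0.19 (all WT lines). WT a minus WT b moved to -1.95 (10 reads), 0.0438 (covered in all 4) and 0.75 (equal weight), with -0.80 to 0.01.

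Among cluster pairs, Hoxa minus Hoxd turned to 0.55 with 10 reads. By left-out line the pairs ran from -2.69 to -1.28 (Hoxa minus Hoxb), -0.64 to -0.05 (Hoxa minus Hoxc), -0.39 to -0.16 (Hoxa minus Hoxd), 1.00 to 2.05 (Hoxb minus Hoxc), 1.13 to 2.52 (Hoxb minus Hoxd) and -0.11 to 0.47 (Hoxc minus Hoxd).

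For called Hox windows, DNMT3A gave 5 with the WT b lines as reference and 1 with all WT lines (36.8% of all windows). K777A gave 0 with limma, with limma centred, with sites of 5 reads (4.37% of all windows), in promoters, with the WT a lines and with all WT lines (3.56%). By left-out line the counts ran from 0 to 10 (DNMT3A), 0 to 3 (N656I), 0 to 9 (K777A), 0 to 0 (N779A) and 0 to 2 (WT sets). An arm with 1 line is assumed to vary like the other, so these counts are a description. The share of all windows called also changed with the line left out. A count of 0 therefore does not show that Hox windows were unchanged. The DNMT3A counts of 0 came with a DNMT3A line left out. The median log2 change of the Hox windows was then 1.04 (without DNMT3A replicate 1) and 1.21 (without DNMT3A replicate 2). With the replicate number as a block, 3 Hox windows were called in K777A (20.7% of all windows) and 0 in the other comparisons (12.9% of all windows in DNMT3A), so the block changed no Hox call. Replicate numbers are names only and do not pair lines.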
